A study of Mus musculus with 4 samples.

Results

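The genes described here mark the stroma and the mural cells of the embryonic kidney: Pdgfra, Pdgfrb, Penk, Fibin, Dcn, Lum, Postn, Smoc2, Ren1 and Acta2. They were chosen by name, with earlier results of these data known. Every non-control probe whose RefSeq accession belongs to 1 of these 10 genes was taken. Each gene had 1 such probe, so the 10 genes are 10 of 55681 probes on the array and 10 of 25076 genes and unnamed sequences tested. Pdgfra and Acta2 were each printed as 10 spots and the other 8 genes as 1 spot. All 10 were well above background on all 4 arrays.

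The samples were whole kidneys of mouse embryos at E13.5, of a 129 and C57BL/6 hybrid strain, 24 hours after tamoxifen at E12.5. Of the 4 arrays, 2 carried total RNA of Sall1 knockout kidneys, whose titles name CreER, and 2 carried RNA of control kidneys, whose titles name flox. CreER is a Cre recombinase that acts only once tamoxifen is present, and Sall1 is a zinc finger gene that nephron progenitors need. All 4 samples received tamoxifen, and the labels name the line Sall1CreER for all of them. Since only the knockout titles name CreER, CreER itself and the loss of Sall1 cannot be told apart. The labels do not say how many embryos made up a sample. The p-values therefore describe how these 4 samples vary, and so few arrays limit the precision.

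The renal stroma is the mesenchyme between the nephrons, and it gives rise to interstitial fibroblasts and to the mural cells of the vessels: pericytes, vascular smooth muscle, mesangial cells and renin cells. Stromal cells lay down extracellular matrix, answer platelet-derived growth factor and send signals to the neighbouring nephron progenitors. Fibroblast genes such as Dcn, Lum and Postn are also active in connective tissue outside the kidney, and Acta2 is also active for a time in developing striated muscle.

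Values are log2 of the processed signal over the 75th percentile of the array, so 0 is the signal of that percentile. On this scale Sall1 had 1.03 and 1.07 in the knockout arrays, against 1.79 and 1.81 in the control arrays, a difference of -0.75 (adjusted p = 0.126 in limma). It had 1 probe, whose place relative to the deleted part the labels do not give. Pearson's r across genes, which are not independent replicates, was 0.9964 between the knockout arrays, 0.9952 between the control arrays and 0.9932 to 0.9945 between groups. Foxd1, the transcription factor of stromal progenitors, was well above background on all 4 arrays, as was Myocd, the myocardin gene of muscle cells. Myh11, the myosin of mature smooth muscle, did not reach well above background on the 4 arrays.

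The question was how these genes differed after loss of Sall1. Of the 10 genes, 8 were higher and 2 lower in the knockout kidneys, the lower ones being Pdgfra and Pdgfrb, of which Pdgfrb turned to 0.011 under quantile scaling and 0.026 under normexp background correction. The 10 genes had a median log2 difference of 0.62, beside -0.013 over all genes tested. Because the genes were chosen with earlier results of these data known, the values over all genes describe and do not test the set. No gene passed limma with Benjamini-Hochberg adjustment over all genes at 0.05: 0 of the 10 were called higher or lower, and 0% of all genes were. At an unadjusted p under 0.05, 3 of the 10 were higher, namely Fibin, Penk and Lum, beside 6.78% of all genes, and 0 were lower, beside 5.94%. The groups did not overlap and differed by at least 1.5-fold for 5 of the 10, all higher, namely Fibin, Penk, Lum, Postn and Acta2, beside 2.48% of all genes, and 0 were lower, beside 1.05%. At any fold 7 of the 10 lay apart and higher, beside 21.5% of all genes, and 1, Pdgfra, lay apart and lower, beside 27.7%. Without control replicate 2 the median was 0.28 and the count at 1.5-fold was 2, namely Fibin and Penk. A lone array in a group makes non-overlap easier to meet, and the share over all genes was not taken for that set. In bulk samples more cells of a type and more RNA per cell cannot be told apart.

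**Figure D1:**
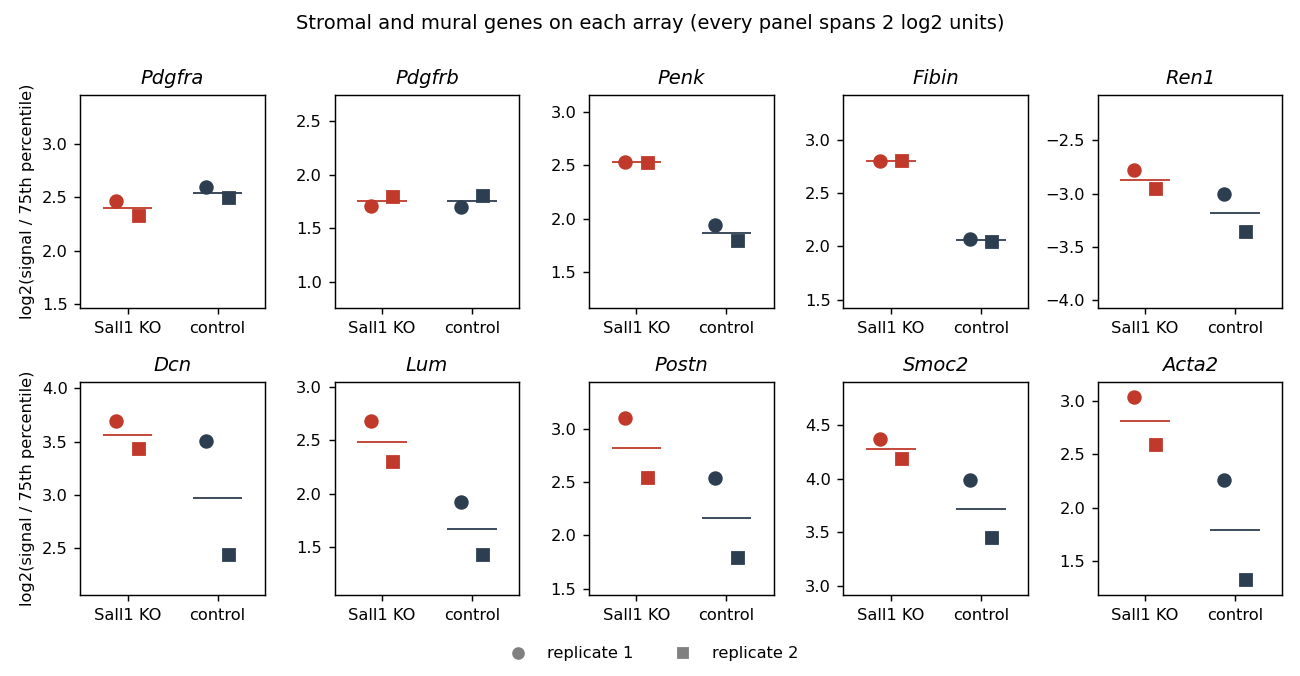
Log2 signal over the 75th percentile of each array for the 10 genes, with both Sall1 knockout arrays in red at the left and both control arrays in dark blue at the right of each panel; circles are replicate 1, squares replicate 2 and lines group means, and every panel spans the same number of log2 units. Fibin and Penk form 2 tight pairs, Pdgfra and Pdgfrb lie level, and in Dcn, Postn and Acta2 control replicate 2 lies well below control replicate 1.

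The genes are described below in 3 patterns over the arrays, a division that was not tested, and the receptors formed the flattest. Pdgfra and Pdgfrb encode the receptors for platelet-derived growth factor, Pdgfra chiefly on fibroblasts and Pdgfrb chiefly on mural cells. Pdgfra had 2.47 and 2.33 in the knockout arrays, against 2.60 and 2.49 in the control arrays. The knockout values were the lower pair, by little. It differed by -0.14 ± 0.083 on the log2 scale (SE, n = 2 per group), with a 95% interval of -0.38 to 0.090 and an adjusted p of 0.511 in limma. Its 10 spots give the error within an array: the coefficient of variation of the spots used was 5.53% and 3.40% in the knockout arrays and 5.18% and 5.76% in the control arrays.

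Pdgfrb had 1.71 and 1.80 in the knockout arrays, against 1.70 and 1.80 in the control arrays. The groups overlapped, and the values of replicates of a group differed by more than the group means did. The log2 difference was -0.00038 ± 0.073 (SE), with a 95% interval of -0.21 to 0.21 (adjusted p = 0.998 in limma). These intervals bound how far the receptors could have moved and do not show that they stayed level.

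The PDGF ligands and partners, 8 genes all tested, lay on both sides of 0, with a median of 0.078. At an unadjusted p under 0.05, 3 were higher and 2 lower, beside 6.78% and 5.94% of all genes. In limma 0 of the 8 passed over all genes. Pdgfc, a ligand of Pdgfra, averaged 1.54 in the knockout arrays, against 2.07 in the control arrays, a difference of -0.53 ± 0.062 (SE). With the variance prior that follows the signal, which lets each gene borrow its spread from genes of like brightness, the adjusted p of Pdgfc in limma was 0.00796. Nrp1, a co-receptor, had -0.33 and -0.34 in the knockout arrays, against 0.094 and 0.066 in the control arrays, and was called lower under the same prior (adjusted p = 0.0371). S1pr1 and Tek, endothelial receptors that steady the vessel wall, were higher by 0.41 ± 0.087 and 0.31 ± 0.074 (SE). Pdgfb, the endothelial ligand that recruits mural cells, differed by 0.19 ± 0.065 and Pdgfa, the main ligand of Pdgfra, by -0.042 ± 0.082.

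Penk and Fibin formed the second pattern: higher in the knockout kidneys, with little spread in either group. Penk encodes proenkephalin, the precursor of the enkephalin opioid peptides, which embryonic mesenchyme also makes. It had 2.53 and 2.52 in the knockout arrays, against 1.94 and 1.79 in the control arrays. The knockout arrays lay together, above both control arrays. The gene was 1.58-fold higher, a log2 difference of 0.66 ± 0.076 (SE, n = 2 per group), with a 95% interval of 0.45 to 0.88 (adjusted p = 0.191 in limma).

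Fibin encodes a secreted protein first described in zebrafish fin development. It had 2.80 and 2.80 in the knockout arrays, against 2.07 and 2.04 in the control arrays. Each pair was nearly identical and the groups lay far apart for their spread. The gene was 1.68-fold higher, a log2 difference of 0.75 ± 0.055 (SE), with a 95% interval of 0.59 to 0.90 (adjusted p = 0.126 in limma).

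Of the 10 genes only Penk and Fibin were called under any alternative run. With the prior that follows the signal the adjusted p in limma was 0.00527 for Penk and 0.00107 for Fibin, and both were called higher, beside 0.542% of all genes, while 0 of the 10 were called lower, beside 0.654%. Fibin alone of the 10 was called with normexp background correction (adjusted p = 0.0390). Leaving out each array in turn moved Penk between 0.59 and 0.74 and Fibin between 0.73 and 0.76. Among the pairs of the 10 genes their profiles were also the nearest, with a Euclidean distance of 0.12 between the 4 centred log2 values. The tested genes nearest to Fibin, among 2421 named genes with a range of at least 0.5, were Abca8b (0.035), Clca3a1 (0.064) and the keratin Krt19 (0.068). For Penk they were Prima1 (0.060), Gabra2 (0.064) and Sod3, a secreted superoxide dismutase (0.069).

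Other genes of the opioid system lay on both sides of 0. Of 10 listed, 5 were tested. At an unadjusted p under 0.05, 1 was higher and 1 lower, beside 6.78% and 5.94% of all genes. Pomc was the lower (-0.24 ± 0.065, SE) and Cpe, a carboxypeptidase that trims peptide precursors, the higher (0.21 ± 0.070). Oprm1, the mu receptor, differed by -0.16 ± 0.077, on a probe that averaged 4.93 in the knockout and 5.09 in the control arrays. A further Oprm1 probe did not clear the background, at -7.34 to -6.81 over the arrays. Which probe reflects the gene was not tested. The paralogous precursors Pdyn and Pnoc and the receptors Oprd1 and Oprk1 did not clear the background on the 4 arrays. None of the 5 passed over all genes in limma, and their median was -0.11.

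**Figure D2:**
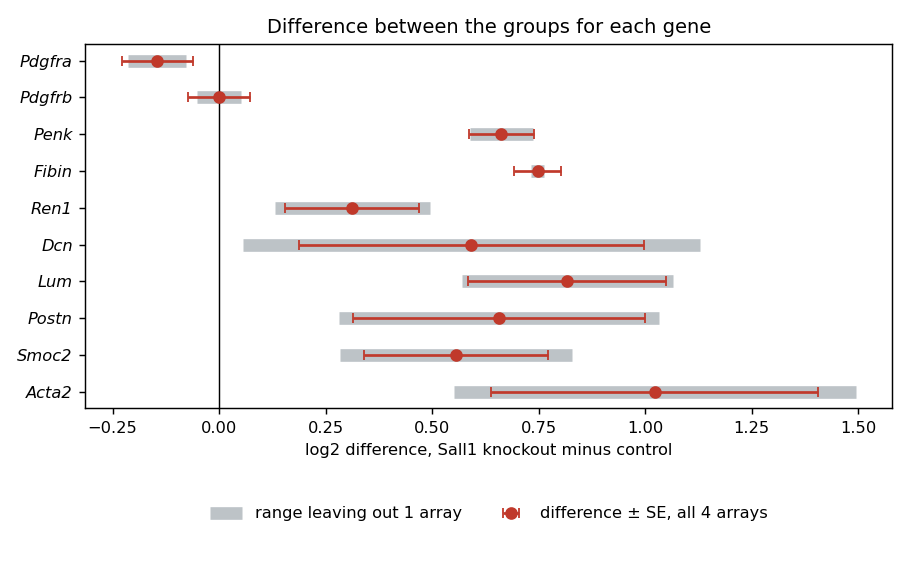
Log2 difference, Sall1 knockout minus control, for each of the 10 genes (points, with the standard error from limma over all 4 arrays) and the range of that difference when each array was left out in turn (grey bars). Fibin at 0.75 and Penk at 0.66 have short bars away from 0, whereas the bar of Dcn runs from 0.056 to 1.13 and that of Acta2 from 0.55 to 1.49.

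The third pattern held the matrix genes Dcn, Lum, Postn and Smoc2, with Acta2 and Ren1. In all 6 the second control array was lower than the first, and so was the second knockout array. That direction held for 9 of the 10 genes, so the size of the gaps sets these 6 apart. The control gap ran from -0.36 for Ren1 to -1.07 for Dcn, against -0.15 for Penk, -0.11 for Pdgfra and -0.032 for Fibin. The knockout gap ran from -0.18 for Ren1 to -0.55 for Postn, against -0.14 for Pdgfra, -0.010 for Penk and -0.00020 for Fibin. The border is not sharp: by Euclidean distance Ren1 lay nearer to Penk (0.40) than to Acta2 (0.84). Dcn encodes decorin, a small leucine-rich proteoglycan that binds collagen and transforming growth factor beta. It had 3.69 and 3.43 in the knockout arrays, against 3.51 and 2.43 in the control arrays. The first control array lay between the knockout arrays, so the groups overlapped, and the other control array stood apart. The log2 difference was 0.59 ± 0.40 (SE), with a 95% interval of -0.56 to 1.74 (adjusted p = 0.567 in limma), and was 0.056 without control replicate 2.

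Lum encodes lumican, a proteoglycan of the same family that orders collagen fibrils, and lies next to Dcn on chromosome 10. It had 2.68 and 2.30 in the knockout arrays, against 1.92 and 1.42 in the control arrays. Unlike Dcn, both knockout values lay above both control values. The gene was 1.76-fold higher, a log2 difference of 0.82 ± 0.23 (SE), with a 95% interval of 0.16 to 1.48 (adjusted p = 0.350 in limma). Leaving out each array in turn gave 0.57 to 1.07.

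The next protein-coding genes along chromosome 10 are Kera and Epyc, of the same proteoglycan family. Kera, which encodes keratocan, had -2.84 and -3.63 in the knockout arrays, against -4.13 and -6.20 in the control arrays, with 1 control array not well above background. Epyc was well above background on 2 arrays and was not tested. Of the 11 other proteoglycans listed, 10 were on the array and 7 were tested, with a median of 0.26. Aspn, or asporin, differed by 2.14 ± 0.51 (SE) with 1 control array not well above background, Ogn by 0.73 ± 0.39 and Bgn, or biglycan, by 0.26 ± 0.12. Aspn alone had an unadjusted p under 0.05, beside 6.78% of all genes higher, and 0 of the 7 passed over all genes in limma. Kera and Aspn passed the background filter only through the knockout arrays, where they were higher. On control replicate 2 they had -6.20 and -5.48, below -5.16, the lowest value well above background there. Their differences, the p of Aspn and the list median therefore rest partly on values near the floor.

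Postn encodes periostin, a matricellular protein of growing connective tissue. It had 3.09 and 2.54 in the knockout arrays, against 2.53 and 1.78 in the control arrays. The second knockout array lay barely above the first control array. The gene was 1.58-fold higher, a log2 difference of 0.66 ± 0.34 (SE), with a 95% interval of -0.32 to 1.63 (adjusted p = 0.485 in limma), and 0.28 without control replicate 2. Its paralogue Tgfbi had 5.53 and 5.42 in the knockout arrays, against 5.69 and 5.61 in the control arrays, a difference of -0.17 ± 0.075 with no overlap.

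Smoc2 encodes a calcium-binding matricellular protein of the SPARC family that modulates growth factor signals. It had 4.37 and 4.18 in the knockout arrays, against 3.99 and 3.45 in the control arrays. Both knockout values lay above both control values, and the gap between the control arrays exceeded the gap between the groups' nearest arrays. The gene was 1.47-fold higher, a log2 difference of 0.56 ± 0.22 (SE), with a 95% interval of -0.056 to 1.17 (adjusted p = 0.419 in limma), and 0.28 without control replicate 2. Its paralogue Smoc1 differed by -0.23 ± 0.11, with the knockout values the lower pair.

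Of 26 other matricellular and fibrillar matrix genes, 25 were on the array and all 25 were tested, with a median of 0.28. At an unadjusted p under 0.05, 4 were higher and 0 lower, beside 6.78% and 5.94% of all genes. In limma 0 passed over all genes. The 4 were Lox, which cross-links collagen and elastin, Eln, Col3a1 and Fbln1. Lox had -2.67 and -2.82 in the knockout arrays, against -3.44 and -3.60 in the control arrays. Eln, or elastin, differed by 0.39 ± 0.096 (SE), Col3a1 by 0.38 ± 0.11 and Fbln1, a fibulin gene, by 0.26 ± 0.079. In 24 of the 25 genes the second control array was lower than the first, against 11491 of 25076 genes tested. Without control replicate 2 the median of the 25 genes was 0.084.

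Acta2 encodes smooth muscle alpha-actin, the actin of mural cells and myofibroblasts, and showed the largest difference of the 10 genes. It had 3.04 and 2.59 in the knockout arrays, against 2.26 and 1.32 in the control arrays. Both knockout arrays lay above both control arrays, and the control arrays were further apart from each other than the nearest arrays of different groups. The gene was 2.03-fold higher, a log2 difference of 1.02 ± 0.38 (SE), with a 95% interval of -0.067 to 2.11 (adjusted p = 0.411 in limma), and 0.55 without control replicate 2.

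The 10 spots of Acta2 varied less within an array than between arrays. Spot signals before scaling ran from 4124 to 4677 on the first and 2920 to 3415 on the second knockout array, against 2570 to 3120 on the first and 1275 to 1440 on the second control array. Spots did not overlap between the 2 arrays of either group, and the coefficient of variation within an array was 3.67% to 6.71%. Actins of other muscles are close to Acta2 in sequence: Actc1, the cardiac actin that embryonic skeletal muscle also makes, had 4.94 and 4.43 in the knockout arrays, against 4.16 and 2.97 in the control arrays. Whether such transcripts bind the Acta2 probe was not tested.

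The smooth muscle contractile genes also lay on both sides of 0: of 14 listed 12 were tested, with a median of 0.20. At an unadjusted p under 0.05, 6 were higher and 1 lower, beside 6.78% and 5.94% of all genes. In limma 0 passed over all genes. Myocd, the co-activator of smooth muscle genes, had -2.16 and -2.26 in the knockout arrays, against -2.90 and -2.99 in the control arrays. It was called higher under the prior that follows the signal (adjusted p = 0.0483 in limma). Actg2, smooth muscle gamma-actin, differed by 0.52 ± 0.066 (SE) and Synpo2 by 0.51 ± 0.099. The other Synpo2 probes differed by 0.83, with no array well above background, and by -0.49, with 3 arrays above it. Tpm2, a tropomyosin, had 3.11 and 3.09 in the knockout arrays, against 3.51 and 3.51 in the control arrays. It was called lower under the same prior (adjusted p = 0.0111 in limma).

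Promoters are shown for Acta2, Postn, Ren1 and Fibin, of the third pattern and the second, to set the sequence beside the array values. They come from RefSeq on GRCm38.p6 and run from 250 bases before the annotated start to 50 after it, on the gene's strand. The files' array design used mm9, so no array value was joined by coordinate. Promoters were matched by symbol, for 5 of the 10 genes. Capitals mark matches to the motif TATAAA, to its longer form TATATAA and to the CArG box, searched on both strands. The CArG box, bound by serum response factor, the partner of myocardin, is CC, then 6 bases of A or T, then GG, and at most 1 mismatch among those 6 was allowed. In Postn the matches to the short and the long motif overlap.
Acta2, chr19:34255324-34255623, minus strand: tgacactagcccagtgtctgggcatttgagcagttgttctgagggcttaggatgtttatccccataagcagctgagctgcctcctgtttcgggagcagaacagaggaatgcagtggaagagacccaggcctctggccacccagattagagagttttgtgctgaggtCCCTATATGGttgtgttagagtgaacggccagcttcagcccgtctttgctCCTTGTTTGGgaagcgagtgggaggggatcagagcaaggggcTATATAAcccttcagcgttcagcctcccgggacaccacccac
Postn, chr3:54360857-54361156, plus strand: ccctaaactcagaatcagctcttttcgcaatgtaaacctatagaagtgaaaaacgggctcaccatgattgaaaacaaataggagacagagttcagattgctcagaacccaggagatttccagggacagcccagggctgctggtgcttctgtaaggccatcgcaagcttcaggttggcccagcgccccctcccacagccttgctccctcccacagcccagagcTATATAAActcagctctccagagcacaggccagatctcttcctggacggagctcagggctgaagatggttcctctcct
Ren1, chr1:133350424-133350723, plus strand: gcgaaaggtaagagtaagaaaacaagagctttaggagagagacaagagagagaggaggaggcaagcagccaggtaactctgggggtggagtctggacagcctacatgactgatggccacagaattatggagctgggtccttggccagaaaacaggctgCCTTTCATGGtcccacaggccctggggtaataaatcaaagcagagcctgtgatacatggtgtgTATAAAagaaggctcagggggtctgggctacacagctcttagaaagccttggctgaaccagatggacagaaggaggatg
Fibin, chr2:110362944-110363243, minus strand: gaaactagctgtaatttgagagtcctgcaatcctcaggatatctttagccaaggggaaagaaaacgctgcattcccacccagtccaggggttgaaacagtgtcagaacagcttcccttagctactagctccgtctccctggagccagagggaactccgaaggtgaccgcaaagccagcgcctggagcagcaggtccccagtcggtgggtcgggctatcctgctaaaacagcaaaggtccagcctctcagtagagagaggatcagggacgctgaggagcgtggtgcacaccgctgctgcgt

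Acta2 held CCCTATATGG at -84 to -75 and CCTTGTTTGG at -34 to -25 from the annotated start, each a CArG box with 1 mismatch, and it held TATATAA at 9 to 15. Of 32851 promoters in the table, 9.98% held at least 1 such box and 0.822% held at least 2. Postn held TATATAA at -28 to -22, a match found in 3.24% of promoters, in the second of its promoters listed, and had no match in the first. Ren1 held TATAAA at -29 to -24, which 13.6% of promoters held, and a CArG box with 1 mismatch, CCTTTCATGG, at -92 to -83. Fibin had no match to these motifs in its window. A match is a description of the sequence, and binding was not measured here.

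Ren1 encodes renin, the enzyme that starts the angiotensin cascade, made by specialised mural cells of the renal arterioles. It was dim: processed signals were 77.7 and 67.1 in the knockout arrays, against 74.7 and 53.2 in the control arrays, or -2.78 and -2.96 against -3.00 and -3.36 on the log2 scale. Both knockout values lay above both control values after scaling, the nearest ones by little. The log2 difference was 0.31 ± 0.16 (SE), with a 95% interval of -0.13 to 0.76 (adjusted p = 0.478 in limma), and 0.13 without control replicate 2.

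Ren2, a near-identical second renin gene that 129 mice carry and C57BL/6 mice lack, had a probe of its own. It had -0.077 and -0.29 in the knockout arrays, against -0.71 and -1.37 in the control arrays, a difference of 0.85 ± 0.26 (SE; adjusted p = 0.363 in limma). Transcripts of both genes could bind either probe, and the share of 129 alleles in each sample is not given in the labels, so its part in these values was not tested.

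Other renin-angiotensin genes were mostly higher in the knockout kidneys, 5 of 8 with no overlap between groups, beside 21.5% of all genes. Of 10 listed, 8 were tested, with a median of 0.35. At an unadjusted p under 0.05, 4 were higher and 0 lower, beside 6.78% and 5.94% of all genes. None of the 8 passed over all genes in limma. Agtr1a, the main angiotensin receptor, had -1.47 and -1.41 in the knockout arrays, against -2.30 and -2.36 in the control arrays, a difference of 0.90 ± 0.063 (SE). Agtr1a and Enpep, which encodes a peptidase that trims angiotensins, were called higher under the prior that follows the signal, with adjusted p values in limma of 0.0111 and 0.0460. Agt, the substrate of renin, differed by 0.13 ± 0.098.

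**Figure D3:**
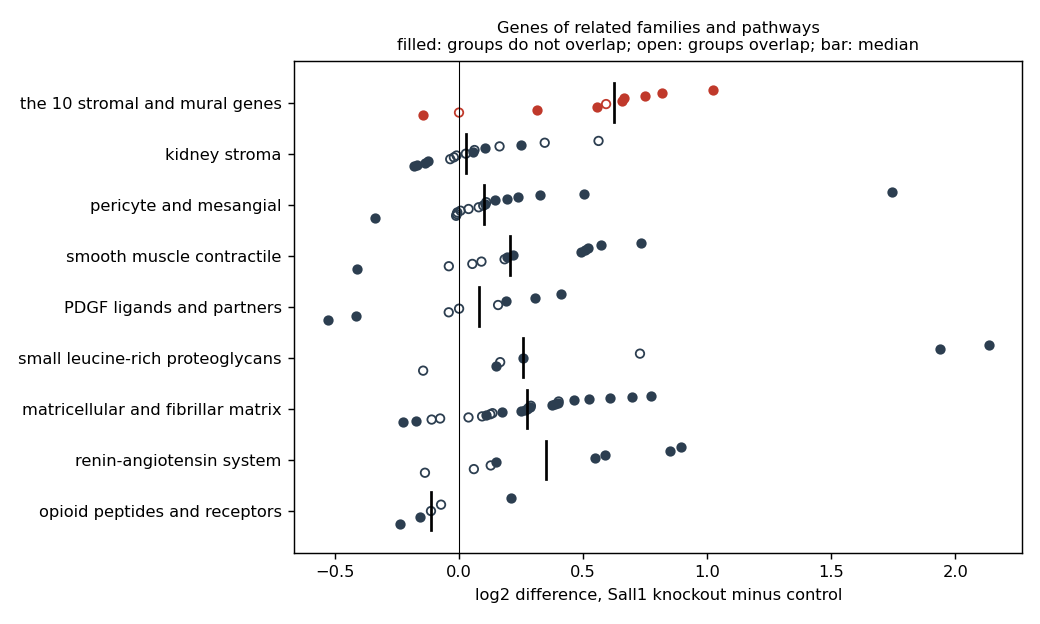
Log2 difference, Sall1 knockout minus control, of each tested gene in the 10 stromal and mural genes (red) and in related lists (dark blue); filled points mark groups that do not overlap, open points groups that do, and bars are medians. The medians run from 0.62 in the 10 genes and 0.35 in the renin-angiotensin genes to 0.027 in the kidney stroma genes and -0.11 in the opioid genes.

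Regulators and surface markers of stroma and pericytes had medians nearer to 0, a difference from the 10 genes that was not tested. Kidney stroma genes had a median of 0.027 over 15 genes tested of 16. At an unadjusted p under 0.05, 1 was higher and 1 lower, near the 6.78% and 5.94% of all genes. These were Nr2f1, a nuclear receptor (0.25 ± 0.062, SE), and Meis2, a homeobox gene of the stroma (-0.18 ± 0.057). Foxd1 differed by -0.17 ± 0.10. Pericyte and mesangial genes had a median of 0.10 over 16 genes. By the unadjusted p 2 were higher, Gucy1a1 and Anpep, and 1 lower, Itga8, beside the same 6.78% and 5.94%. Gucy1a1, a subunit of the nitric oxide receptor, had 2.70 and 2.67 in the knockout arrays, against 2.09 and 2.28 in the control arrays, and was called under the prior that follows the signal (adjusted p = 0.0212 in limma). Itga8 was called lower under that prior (adjusted p = 0.0327), and nephron progenitors express it too. None of the genes of these lists passed over all genes in limma.

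Some markers of other cells also varied between the arrays, and the lists differed in this. The order from knockout replicate 1 through knockout replicate 2 and control replicate 1 down to control replicate 2 held for 7 of the 10 genes, beside 6.21% of all genes: Penk, Fibin, Lum, Postn, Smoc2, Ren1 and Acta2. It also held for 11 of 14 skeletal muscle genes, 13 of 25 matrix genes and 9 of 11 macrophage genes tested. In other marker lists it held for 2 of 12 endothelial, 1 of 12 ureteric bud and 1 of 14 liver and gut genes. For tendon, cartilage and body wall it was 1 of 9, and for nephron progenitor, erythroid and adrenal genes 0. Among related lists it was 4 of 12 smooth muscle, 3 of 7 proteoglycan, 1 of 16 pericyte and 1 of 15 kidney stroma genes. The gap between the control arrays, replicate 2 minus replicate 1, was -1.07 for Dcn, -0.94 for Acta2, -0.75 for Postn, -0.54 for Smoc2, -0.50 for Lum and -0.36 for Ren1, and its median over the skeletal muscle genes was -1.04. It was -0.15 for Penk and -0.032 for Fibin. Between the knockout arrays the gap was -0.55 for Postn, -0.45 for Acta2, -0.38 for Lum, -0.26 for Dcn, -0.19 for Smoc2 and -0.18 for Ren1. The muscle median was -0.54, and the gap was -0.010 for Penk and -0.00020 for Fibin.

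Summed in units of the 75th percentile, the 14 skeletal muscle genes reached 91.0 and 61.4 in the knockout arrays, against 50.6 and 21.3 in the control arrays. Their median log2 difference was 1.22, and 0.63 without control replicate 2. Myh3, embryonic myosin, had 3.93 and 3.17 in the knockout arrays, against 3.21 and 0.63 in the control arrays. Ckm, of the same list, cleared the background on 0 of the 4 arrays. Tendon, cartilage and body wall genes had a median of 0.13 over 9 of 14 genes, and of their markers Tnmd, Cnmd, Myf5 and Dpt cleared it on 0 arrays. The part of muscle or body wall tissue in the values of Dcn, Lum, Postn, Smoc2 and Acta2 was not tested.

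**Figure D4:**
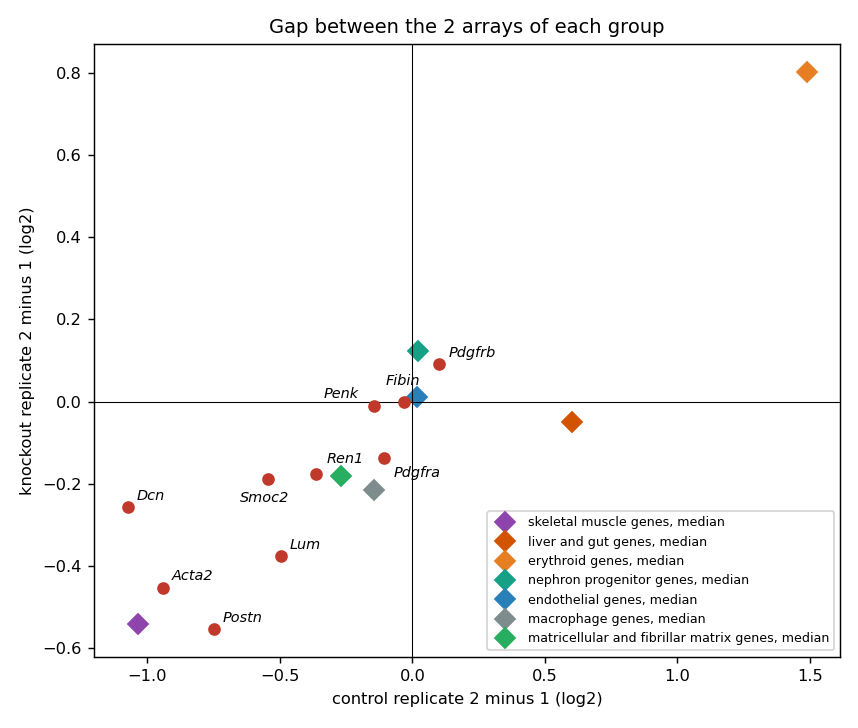
Gap between the 2 arrays of a group on the log2 scale, knockout replicate 2 minus 1 on the vertical axis and control replicate 2 minus 1 on the horizontal axis, for the 10 genes (red points) and for the medians of marker lists (diamonds). Fibin and Penk lie near the origin, whereas Acta2, Postn and Dcn lie at the lower left, the side of the skeletal muscle median at -1.04 and -0.54.

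Markers of liver and blood ordered the arrays differently. Liver and gut genes summed to 47.4 and 43.5 in the knockout arrays, against 15.2 and 23.0 in the control arrays, with the second control array the higher of its group in 13 of 14 genes. Erythroid genes summed to 1277 and 2241 in the knockout arrays, against 1109 and 2062 in the control arrays, and were higher on the second array of both groups in all 10 genes tested. Macrophage genes were higher in both knockout arrays in all 11 genes tested, beside 21.5% of all genes. They had a median of 0.51 and a control gap of -0.14. Nephron progenitor genes had a median of -0.55 over 14. The part of these cells in the values of Penk and Fibin was not tested.

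The tested genes nearest to Acta2 over the 4 arrays were Alpk3, an alpha kinase of striated muscle (distance 0.039), Hspb2, a small heat shock protein (0.078), and Sln, or sarcolipin, a regulator of the muscle calcium pump (0.081). The genes nearest to Dcn included Ryr1, the calcium release channel of skeletal muscle (0.071). With 4 arrays many profiles lie close together, so these distances only describe.

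**Figure D5:**
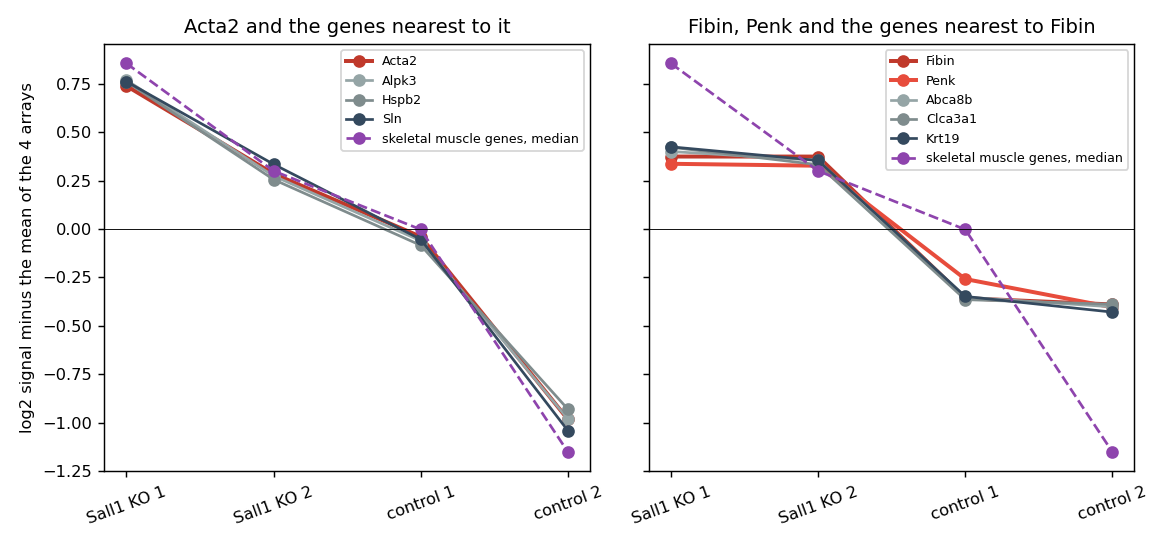
Log2 signal on each array minus the mean of the 4 arrays, for Acta2 with the 3 genes nearest to it (left) and for Fibin and Penk with the 3 genes nearest to Fibin (right); the dashed line is the skeletal muscle median, repeated in both panels, and lines only join the values of a gene. Acta2 descends stepwise with the muscle line, while Fibin and Penk stay level within each group.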

How the data were processed

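Labelled cRNA of 4 samples was hybridised to 1-colour Agilent mouse arrays on a single slide. Per the file headers, the authors extracted the deposited intensities with Agilent Feature Extraction 10.7.3.1, whose processed signal is already corrected for background. Further normalization by the authors is not recorded in the labels or file headers. The deposited value table held the same processed intensities to within 1% for the 55249 probes with a single spot, while for Pdgfra, with 10 spots, it differed from the mean used here by up to 2.21%, and the file of control replicate 1 was written to 3 significant digits.

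Control spots were dropped, as were the 147 to 174 spots per array that carry an outlier mark. No spot was saturated. Signals were divided by the 75th percentile of the array (534 and 521 in the knockout arrays, 597 and 547.5 in the control arrays), and log2 was taken. Spots of a probe were averaged, 34253 of 55681 probes were kept because both arrays of 1 or both groups were well above background, and a gene was read from its brightest probe. Gene names came from RefSeq through the probes' accessions, which matched 26413 probes, leaving 29268 without a symbol. The test was limma 3.58.1 in R 4.3.3, two-sided (lmFit, eBayes with the default prior, 2 residual and 1.79 prior degrees of freedom). Benjamini-Hochberg adjustment ran over 25076 genes and unnamed sequences at a threshold of 0.05. The code was also run on simulated data with independent normal noise. Such data lack variation that genes share between arrays, so that run does not show how the test fares with it.

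The 10 genes and all lists were chosen with earlier results of these data known, and 1 gene of the renin-angiotensin list is not reported here. Named besides the 10 are Sall1, up to 4 genes of each related list with the smallest unadjusted p, the brightest and smallest-p markers of other cells, a fixed set of relatives, and the 3 genes with the nearest profile. Alternatives were normexp with an offset of 50 on the median signal, quantile scaling, the value table, a prior that follows the signal with robust fitting, no background filter, other fold limits and leaving out each array. Scan and slide were shared by all arrays, so they hold no batch.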

Additional observations from a re-analysis of the deposited data

How the results depend on the processing

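In limma with Benjamini-Hochberg adjustment 0 of the 10 genes and 0 of 25076 genes passed (3189 had an unadjusted p under 0.05, and the smallest adjusted p was 0.0724). With normexp 1 of the 10, Fibin, passed among 41 genes, and with the prior that follows the signal 2, Penk and Fibin, among 300. At an adjusted p under 0.1, 0 of the 10 passed. Leaving out each array gave 0 to 0. Sall1 differed by -0.72 under normexp (adjusted p = 0.0383) and -0.75 under the other prior (adjusted p = 0.00143), both now past the threshold, and by -0.77 to -0.73 without each array. The count of genes apart by 1.5-fold was 5, and leaving out each array gave 2 to 7, the lowest without control replicate 2. At any fold it was 8 and at 2-fold 1. The median of the 10 genes, 0.62, ran from 0.28 without control replicate 2 to 0.80 without control replicate 1. Pdgfrb turned to a positive difference of 0.026 under normexp, 0.011 under quantile scaling, 0.0048 with the value table, 0.051 when control replicate 2 was left out and 0.045 for Sall1 knockout replicate 1, and leaving out each array gave -0.051 to 0.051. The other 9 genes kept their direction in the 14 alternatives run for them. The cause of these changes was not tested. With 2 arrays a group, a left-out array leaves a lone one that is assumed to vary like the other group. No paired analysis was possible because the replicate numbers follow the order of the samples and the labels tie no knockout sample to a control sample. Signal over background limits Ren1 most among the 10 genes, and Kera and Aspn among their relatives.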

Other observations

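The genes whose values over the 4 arrays lay nearest to the remaining stromal genes, by the same Euclidean distance on centred log2 values, are given as a description. For Lum they were Popdc2, a muscle membrane protein (0.059), Itgb6 (0.11) and Pmaip1 (0.11). For Postn they were Itm2a (0.051), Glt8d2 (0.060) and Prkg1, the cGMP-dependent kinase of smooth muscle (0.085). For Smoc2 they were Sult1e1, an estrogen sulfotransferase (0.051), Wfikkn2 (0.055) and Baalc (0.066). Those nearest to Ren1 were Zfp114 (0.034), the fibrillar collagen gene Col5a2 (0.035) and Nynrin (0.041).

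Vtn, which encodes vitronectin and stands in the pericyte list although the liver also makes it, had -2.04 and -1.53 in the knockout arrays, against -4.40 and -2.66 in the control arrays. Its difference of 1.75 ± 0.66 (SE, adjusted p = 0.415 in limma) was the largest of that list, and it was named after its values were seen. Afp, a gene of fetal liver and yolk sac, had 4.35 and 3.96 in the knockout arrays, against 2.41 and 2.97 in the control arrays.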
